A study of Mus musculus with 18 samples.

Results

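The genes described here encode enzymes of heme synthesis, with a membrane transporter that belongs to the same pathway. They were taken by symbol from the table of RNA values, and all 9 chosen symbols (Alas1, Alas2, Alad, Uros, Urod, Cpox, Ppox, Fech and Abcb10) were found among its 26599 genes, each in a single row. The RNA came from MEL cells, a mouse erythroleukemia line. The groups were cells before treatment (day 0, no DMSO) and cells kept for 5 days in 2% dimethyl sulfoxide (DMSO, day 5). No group was kept for 5 days without DMSO, so its effect cannot be told apart from that of time in culture. DMSO drives these cells toward making hemoglobin, and each day had 2 libraries that the labels call biological replicates. As leukemic cells MEL stand in for red cell precursors only in part, and the labels report staining for hemoglobin in most but not all treated cells.

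Heme is an iron atom held in a porphyrin ring, and red cell precursors make large amounts of it for hemoglobin. The path begins in the mitochondrion, where ALA synthase joins glycine with succinyl-CoA to give 5-aminolevulinic acid (ALA). It goes on in the cytosol, where ALA is built up into a porphyrin ring, and returns to the mitochondrion, where the ring is oxidized and iron is put in. ALA synthase has an erythroid form, Alas2, and a form used in all cells, Alas1, which heme holds back.

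Values are FPKM, fragments scaled by transcript length and by the size of the library, as the authors deposited them. They allow levels of different genes to be set side by side, but without read counts the sequencing depth is unknown. FPKM summed to between 758150 and 787493.9 over the 4 libraries, and between 10227 and 10601 genes stood at 1 FPKM or more. All 6 erythroid markers rose, and their summed FPKM was 1434 and 923 on day 0 against 28909 and 24118 on day 5. Of 6 myeloid markers Csf1r, Lyz2 and Mpo were at 0 in all libraries and Itgam was close to 0. Only 2 were tested: Sfpi1, which encodes PU.1, fell, and Cd68 did not pass. Cd68 had a mean of 0.993 FPKM on day 0 and 1.36 on day 5 (limma adjusted p = 0.795). The sum of the 6 was 56.7 and 102 FPKM and then 2.99 and 5.64. On day 0 nearly all of it was Sfpi1 (mean 78.2 FPKM), so the drop of the sum is that of 1 gene. Of 3 megakaryocyte markers tested 1 rose (Itga2b), with sums of 57.7 and 17.9 FPKM and then 135 and 109.6, and of 9 markers of lymphoid cells, hepatocytes and fibroblasts 1 reached 1 FPKM in a library. The part of these shifts in the results was not tested. RNA of a whole culture cannot tell more RNA per cell from more cells that make it.

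After DMSO 7 of the 9 genes had more RNA in both treated libraries than in both untreated ones (40.2% of all genes tested did), and Alas2 changed the most. Of the 9 genes 5 rose (Alas2, Abcb10, Fech, Alad and Uros), 0 fell and 4 did not pass the threshold (Urod, Ppox, Cpox and Alas1). Among all 10736 genes tested, 10.7% rose and 7.81% fell (18.5% in all) by the same rule, limma with a Benjamini-Hochberg adjusted p under 0.05. The median log2 fold change was 1.58 for the 9 genes and 0.15 for all genes tested, both on the scale of log2(FPKM + 1). After quantile normalization the median of all genes was 0.01 and their split moved from 1150 higher and 839 lower to 814 higher and 895 lower, while 4 of the 9 heme genes still rose and Uros did not pass. At an unadjusted limma p under 0.05 there were 8 of the 9 in either direction, all but Alas1, beside 38.6% of all genes tested. Of these 8 Cpox was lower on day 5 and the others higher.

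The calls need all 4 libraries. With any library left out, 0 of the 9 genes passed in limma. Unadjusted p-values under 0.05 were then found for 7 and 6 of the 9 genes when the first or the second day 0 library was dropped, and for 6 and 5 when the first or the second day 5 library was. Of all genes tested, 28.3%, 23.3%, 30.0% and 32.0% had such p-values in these 4 fits. In those fits between 0 and 13 of all genes passed, and all 9 heme genes kept the direction of their change.

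**Figure D1:**
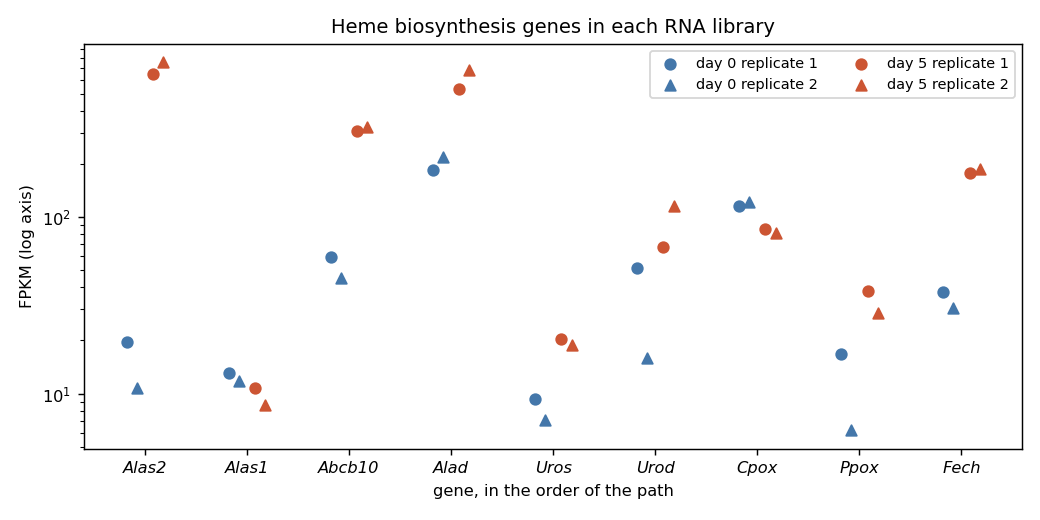
FPKM of each heme biosynthesis gene (log axis) in the 4 RNA libraries. Enzymes are in the order of the path, and the transporter Abcb10, which is not a step of it, is set between Alas1 and Alad. Circles stand for replicate 1 and triangles for replicate 2, with day 0 in blue and day 5 in orange. The day 5 points of Alas2 (647 and 752 FPKM) lie far above those of day 0 (19.7 and 10.7), while Alas1 and Cpox lie lower on day 5.

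Of the forms of the entry enzyme, Alas2 rose and Alas1 did not pass. Alas2 (ENSMUSG00000025270.7) was measured at 19.7 and 10.7 FPKM before treatment, against 647 and 752 FPKM after it. Both day 5 values lay far above both day 0 values, the mean went from 15.2 ± 6.36 to 699.7 ± 74.2 FPKM (SD, n = 2), and the fold of the means was 46.0. Its log2 fold change of 5.49 ± 0.30 (SE, limma adjusted p = 0.00397) ranked 4 among all 10736 genes tested. With no filter on low FPKM, where 15168 genes were tested, limma's adjusted p was 0.0517.

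Alas1 (ENSMUSG00000032786.8), the form found in all tissues, stood at 13.1 and 11.8 FPKM on day 0 and at 10.7 and 8.60 on day 5. Both day 5 values lay below both day 0 values, but the difference did not pass (log2 fold change -0.35 ± 0.25 SE, limma adjusted p = 0.346). Its size was -0.64 after quantile normalization (adjusted p = 0.115) and -0.20 without day 5 replicate 2. Of all tested genes 27.0% had both day 5 libraries below both day 0 libraries.

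The ratio of Alas2 to Alas1 does not depend on how a library is scaled. Before treatment it was 1.51 and 0.906, and after treatment 60.6 and 87.4, so on day 0 the forms stood at like levels and on day 5 Alas2 was in great excess. Alas1 made up 39.9% and 52.5% of the summed ALA synthase FPKM on day 0, against 1.62% and 1.13% on day 5. The sum of both forms went from 27.7 ± 7.25 to 709 ± 72.7 FPKM (SD, n = 2), 25.6-fold. With 2 libraries against 2 an exact permutation test of the ratio cannot go below p = 0.333 (two-sided), and none was run.

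The stretches just before the start sites of these genes are shown for Alas2 and Alas1 because they encode forms of the same enzyme, of which one rose and the other did not pass. They are RefSeq windows of 250 bases ending at the base before the annotated start (GRCm38.p6), read 5′ to 3′ on the gene's strand. That of Alas2 is chrX:150547167-150547416 on the plus strand. That of Alas1 is chr9:106247731-106247980 on the minus strand, the more downstream of 2 annotated starts. Capitals mark matches on either strand to GATAA (the core bound by GATA factors, TTATC on the other strand), CACCC (the core of the box bound by KLF1 and its relatives) and the consensus of the factor NRF1.
Alas2: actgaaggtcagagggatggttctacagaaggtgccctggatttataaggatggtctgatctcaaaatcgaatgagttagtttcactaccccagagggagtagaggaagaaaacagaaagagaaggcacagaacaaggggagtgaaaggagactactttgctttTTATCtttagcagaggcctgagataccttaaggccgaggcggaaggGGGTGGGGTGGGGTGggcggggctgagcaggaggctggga
Alas1: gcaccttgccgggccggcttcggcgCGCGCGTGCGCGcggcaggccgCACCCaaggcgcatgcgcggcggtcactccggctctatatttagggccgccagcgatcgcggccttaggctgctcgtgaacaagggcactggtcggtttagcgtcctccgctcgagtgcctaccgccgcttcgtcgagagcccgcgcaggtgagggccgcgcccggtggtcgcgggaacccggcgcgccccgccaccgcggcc
The Alas2 window held a GATAA match 86 bases before the start and 3 CACCC matches 40, 35 and 30 bases before it. The Alas1 window held no GATAA match, 1 CACCC match and an NRF1 match 225 bases before the start. The other Alas1 window held 1 CACCC match alone. A match describes letters and does not show that a factor sits there.

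Abcb10 and Fech, which act together at the mitochondrial inner membrane, rose by like amounts. Abcb10 (ENSMUSG00000031974.8), a transporter that is induced by GATA1 and bound to ferrochelatase and the iron importer mitoferrin, stood at 59.4 and 45.4 FPKM on day 0 and at 307 and 322 on day 5. Fech (ENSMUSG00000024588.7), ferrochelatase, which puts iron into the finished ring, stood at 37.7 and 30.6 FPKM on day 0 and at 178 and 186 on day 5. In both genes the replicates lay close together and the days far apart. The fold of the means was 6.01 for Abcb10 (log2 fold change 2.58 ± 0.19 SE, limma adjusted p = 0.00552) and 5.33 for Fech (2.39 ± 0.18 SE, 0.00558). The ratio of Abcb10 to Fech was 1.58 and 1.48 on day 0 and 1.73 in both day 5 libraries, so the levels of this pair moved nearly in step. With no filter on low FPKM Fech still passed (limma adjusted p = 0.0474) and Abcb10 did not (0.0517).

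Alad and Uros, which act in the cytosol, rose less than Abcb10 and Fech, with no overlap of their library differences. Alad (ENSMUSG00000028393.4), ALA dehydratase, which joins ALA molecules into the first pyrrole, was the most abundant of the 9 genes on day 0 at 184 and 219 FPKM, and reached 533 and 685 on day 5. It rose 3.02-fold (log2 fold change 1.58 ± 0.20 SE, limma adjusted p = 0.014, and 0.078 with no filter). Uros (ENSMUSG00000030979.6), uroporphyrinogen III synthase, which closes the ring in the form that leads to heme, was low throughout, at 9.33 and 7.05 FPKM on day 0 and at 20.3 and 18.8 on day 5. It rose 2.39-fold (log2 fold change 1.17 ± 0.25 SE, limma adjusted p = 0.0356). This call was lost after quantile normalization, where its log2 fold change was 0.90 (adjusted p = 0.0523), and with no filter (0.0948).

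Urod (ENSMUSG00000028684.8), uroporphyrinogen decarboxylase, trims the side chains of the ring. It stood at 51.4 and 15.9 FPKM on day 0 and at 68.0 and 115 on day 5. The day 5 values were higher, the day 0 libraries lay far apart, and the change did not pass (log2 fold change 1.58 ± 0.57 SE, limma adjusted p = 0.106). The size rests on which day 0 library is used: it was 2.40 without day 0 replicate 1 and 0.77 without day 0 replicate 2. Alad and Urod had the same estimate with a different spread behind it.

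The steps just before ferrochelatase had differences of opposite sign, neither past the threshold. Ppox (ENSMUSG00000062729.5), protoporphyrinogen oxidase, stood at 16.8 and 6.19 FPKM on day 0 and at 37.9 and 28.8 on day 5. The days did not overlap, yet day 0 varied as it did for Urod, with replicate 2 the lower library, and the change did not pass (log2 fold change 1.59 ± 0.46 SE, limma adjusted p = 0.067; 2.24 without day 0 replicate 1 and 0.94 without day 0 replicate 2). Cpox (ENSMUSG00000022742.5), coproporphyrinogen oxidase, which comes just before it in the path, was at 115 and 122 FPKM on day 0 and at 85.5 and 81.0 on day 5. The replicates agreed closely and the day 5 values were lower, with a fold of the means of 0.705, but the difference did not pass (log2 fold change -0.50 ± 0.16 SE, limma adjusted p = 0.0794). Its direction was the same under each scaling tried. The ratio of Fech to Cpox was 0.328 and 0.252 before treatment, against 2.08 and 2.29 after it, so Cpox had the higher FPKM on day 0 and Fech on day 5.

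**Figure D2:**
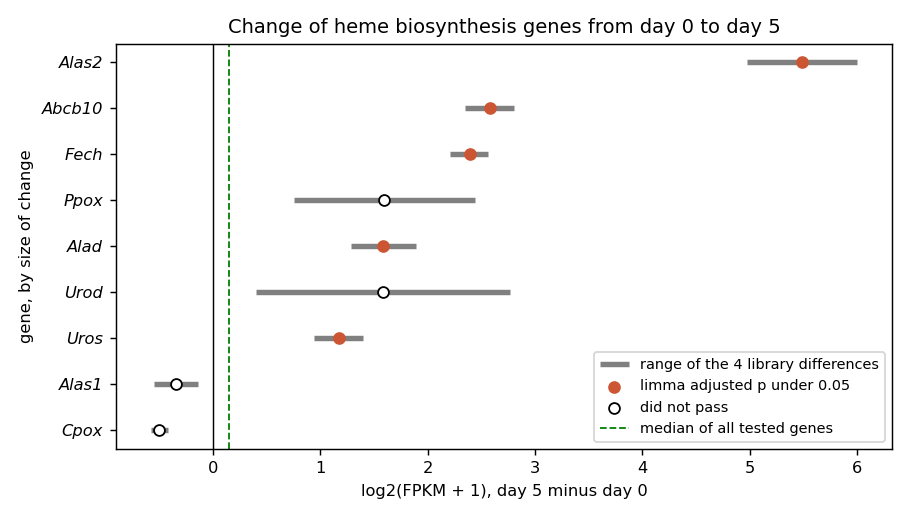
Change of each heme biosynthesis gene from day 0 to day 5 on the scale of log2(FPKM + 1), ordered by size, with the fitted change as a point (filled where limma's adjusted p is under 0.05) and the range of the 4 differences between a day 5 and a day 0 library as a bar. The bar of Alas2 stands clear of all others, those of Urod and Ppox are the widest, and those of Alas1 and Cpox lie below 0, left of the dashed line at 0.15, the median of all genes tested.

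The order of induction did not follow the order of the steps. By log2 fold change it ran Alas2, Abcb10, Fech, Ppox, Alad, Urod, Uros, Alas1 and Cpox. Alas2 of the entry step, the transporter and Fech of the last step thus had the largest estimates. Alas1, of the same entry step as Alas2, came next to last. Neighbours were called apart only where the 4 differences between single libraries did not overlap. By that rule 2 of the 8 neighbouring pairs were apart. Alas2 (differences of at least 4.97) stood above Abcb10 (2.35 to 2.80), and Uros (0.94 to 1.40) stood above Alas1 (-0.55 to -0.14). The other 6 neighbouring pairs overlapped, among them Alas1 and Cpox (-0.58 to -0.42), and the wide ranges of Ppox and Urod bridge those of Fech (2.21 to 2.56) and Alad (1.28 to 1.89). Of the 6 genes whose products act at the mitochondrion 3 rose, and of the 3 cytosolic ones 2 rose, beside 10.7% of all genes tested. These sets are too small to compare the compartments.

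The order of levels changed as well. On day 0 Alad was the highest at 202 ± 25.2 FPKM, followed by Cpox at 118 ± 4.78 and Abcb10 at 52.4 ± 9.93 (SD, n = 2). Alad was apart from Cpox, and Cpox from Abcb10. Abcb10 was apart from Fech, the next by mean, but at 59.4 and 45.4 FPKM it overlapped Urod (51.4 and 15.9). Below Abcb10 by mean, Fech, Urod, Alas2, Alas1, Ppox and Uros overlapped from each to the next. On day 5 Alas2 was the highest in both libraries and overlapped Alad, at 609 ± 107 FPKM, by the range of its replicates. Abcb10 (315 ± 10.5), Fech (182 ± 5.73) and Urod (91.3 ± 32.9) came next. Urod overlapped Cpox (83.3 ± 3.19), and Ppox (33.4 ± 6.47), Uros (19.6 ± 1.05) and Alas1 (9.64 ± 1.47) were apart from each other and from Cpox. Alas1 thus held the lowest place on day 5, and Cpox moved from the second to the sixth.

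**Figure D3:**
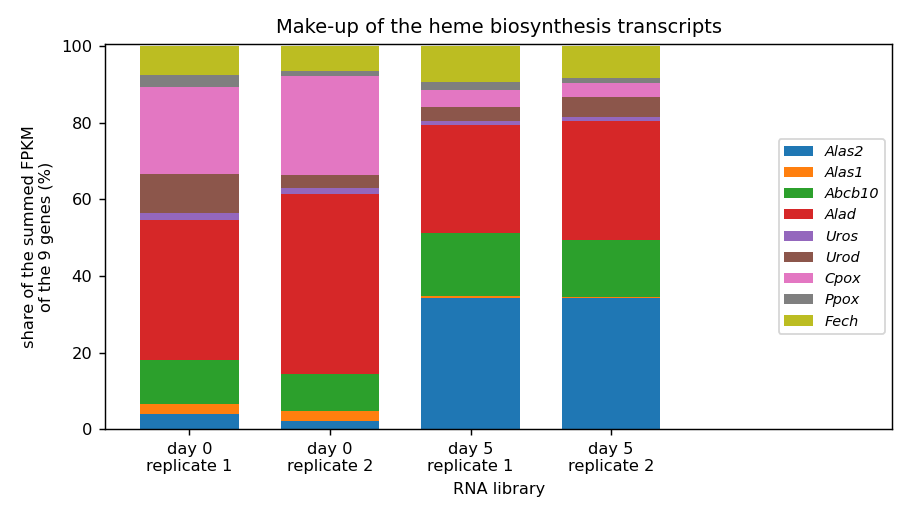
Share of each gene in the summed FPKM of the 9 heme biosynthesis genes, as a stacked bar for each of the 4 RNA libraries. Alas2 takes 34.3% and 34.2% in the day 5 libraries against 3.90% and 2.29% on day 0, and Cpox takes 4.53% and 3.69% against 22.7% and 25.9%.

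Summed over the 9 genes, FPKM went from 487 ± 26.3 on day 0 to 2043 ± 219 on day 5 (SD, n = 2), 4.2-fold. Without Alas2 the other 8 genes went from 472 ± 20.0 to 1343 ± 144 FPKM, 2.85-fold. Within the sum the share of Alas2 was 3.90% and 2.29% before treatment, against 34.3% and 34.2% after it. The share of Cpox was 22.7% and 25.9% before treatment, against 4.53% and 3.69% after it. Alad held 41.6 ± 7.42% on day 0 and 29.7 ± 2.08% on day 5, and so remained a large part of the set. Relative to Alas2 RNA, that of each of the 6 later enzymes measured here was lower on day 5. This follows from setting them against Alas2, which had the largest fold. In FPKM itself only Cpox of these was lower. The ratio of Alad to Alas2 was 9.31 and 20.4 before and 0.824 and 0.911 after treatment, and that of Uros to Alas2 was 0.473 and 0.657 before and 0.0314 and 0.025 after.

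Start sites of Uros and Cpox are shown for contrast, since Uros rose and Cpox was lower on day 5. Uros has 2 annotated starts, of which the downstream one is known for use in erythroid cells, but the RNA table has 1 row per gene and does not show which start was used. The downstream Uros window is chr7:133702501-133702750 on the minus strand, and that of Cpox is chr16:58669958-58670207 on the plus strand, all GRCm38.p6. Capitals mark the same motifs as above.
Uros downstream: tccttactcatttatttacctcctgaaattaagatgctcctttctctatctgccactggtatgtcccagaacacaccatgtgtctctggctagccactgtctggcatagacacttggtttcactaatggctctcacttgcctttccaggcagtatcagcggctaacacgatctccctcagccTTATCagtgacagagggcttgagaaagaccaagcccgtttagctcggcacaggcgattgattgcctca
Cpox: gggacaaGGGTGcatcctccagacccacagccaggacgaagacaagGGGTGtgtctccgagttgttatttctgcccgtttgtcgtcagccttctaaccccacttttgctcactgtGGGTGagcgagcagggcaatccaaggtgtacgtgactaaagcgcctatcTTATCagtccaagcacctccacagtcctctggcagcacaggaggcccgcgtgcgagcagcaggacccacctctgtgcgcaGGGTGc
The downstream Uros window held a GATAA match 68 bases before the start, and the upstream window held none. Cpox held a GATAA match 86 bases before the start, as did Alas2, and 4 CACCC matches. Its RNA was lower in both day 5 libraries without passing, and any link between matches and RNA was not tested. Windows were found for 8 of the 9 genes, all but Fech, and there were 11 in all, counting alternative starts. GATAA matches stood in 3 of the 11 windows (Alas2, Uros downstream and Cpox), against 22.6% of all 32851 RefSeq windows of this length. CACCC stood in 6 of 11 (52.0% of all windows) and the NRF1 consensus in 2 of 11 (0.998%: Alas1 and Abcb10). GAGGAA, a core of the ETS family to which PU.1 belongs, stood in 3 of 11 (23.3%: Alas2, Abcb10 and Uros upstream). Its matches are not in capitals above. TGANTCA, a core of the NF-E2 site, stood in 0 of 11 (6.75%). Each motif was counted on both strands. These counts describe the windows, and the windows of a gene with 2 starts can overlap.

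Genes whose RNA followed the pattern of Alas2 most closely over the 4 libraries were found by the distance between centred log2(FPKM + 1) values. The 5 closest were the alpha globin gene Hba-a1 (distance 0.39), BC021767 (0.68), Btg2, a gene that restrains proliferation (0.70), Apol11b (0.87) and Abat, which breaks down GABA (0.91). Hba-a1 has a near-identical copy that could share its reads, so its level is uncertain. The others were low on day 0, so the 1 FPKM added before taking logs weighs on their distances. BC021767 stood at 0.442 and 0 FPKM then, Apol11b at 0.385 and 0, Btg2 at 2.80 and 0.537, and Abat at 1.27 and 0.856. Their folds of the means were 152, 477, 43.0 and 50.7 in that order, against 46.0 for Alas2. Among the heme genes Abcb10 came nearest (2.93), then Fech (3.12). Alas1 and Cpox were the farthest, at places 7763 and 8361 of 10735. A distance over 4 libraries mostly reflects the size of the change between days.

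Around the path, 62 of 64 further genes in 6 lists could be tested, of which 12 rose, 6 fell and 44 did not pass, beside 10.7% higher and 7.81% lower among all tested genes. As for the heme genes, leaving out any library ended the calls of the genes named below, and with no filter on low FPKM those of Fam210b, Shmt2, Tal1, Lmo2 and Abcg2 alone held. Carriers and transporters held the most changes, with 6 of 15 tested genes higher and 1 lower (median log2 fold change -0.13). Tspo, an outer membrane protein that binds porphyrins, stood at 13.8 and 5.08 FPKM on day 0 and at 98.7 and 61.8 on day 5 (log2 fold change 3.06, limma adjusted p = 0.02; 3.70 without day 0 replicate 1 and 2.42 without day 0 replicate 2). Fam210b, a mitochondrial protein of erythroid iron import listed as 2010011I20Rik, went from 4.22 and 5.44 to 49.6 and 41.6 FPKM (3.00, 0.00599). Pgrmc1, a heme-binding partner of ferrochelatase, fell (-0.78, 0.0469), and passed in 1 of the 11 alternative fits, that with a filter of 5 FPKM.

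Some further transport genes are given here because of their known place beside the heme enzymes, chosen after their values were seen. The porphyrin and heme exporter Abcg2 changed by 2.82 on the log2 scale (limma adjusted p = 0.00478), the protoporphyrinogen carrier Tmem14c 1.57 (0.0107) and the porphyrin transporter Abcb6 1.08 (0.0315). The iron importer Slc25a37, mitoferrin-1, had 0.87 (0.0429), and did not pass after quantile normalization (0.0823). Slc25a38, which brings glycine into the mitochondrion for ALA synthase, stood at 20.7 and 21.3 FPKM on day 0 and at 20.7 and 17.6 on day 5 (log2 fold change -0.13, limma adjusted p = 0.675; -0.33 after quantile normalization, -0.24 without day 5 replicate 1 and -0.02 without day 5 replicate 2). Slc25a39, a carrier of glutathione, went from 238 and 217 to 93.6 and 170.4 FPKM without passing (-0.84, 0.107; -0.41 without day 5 replicate 1 and -1.27 without day 5 replicate 2). The estimates of these chosen genes differed in sign, and the negative ones did not pass.

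**Figure D4:**
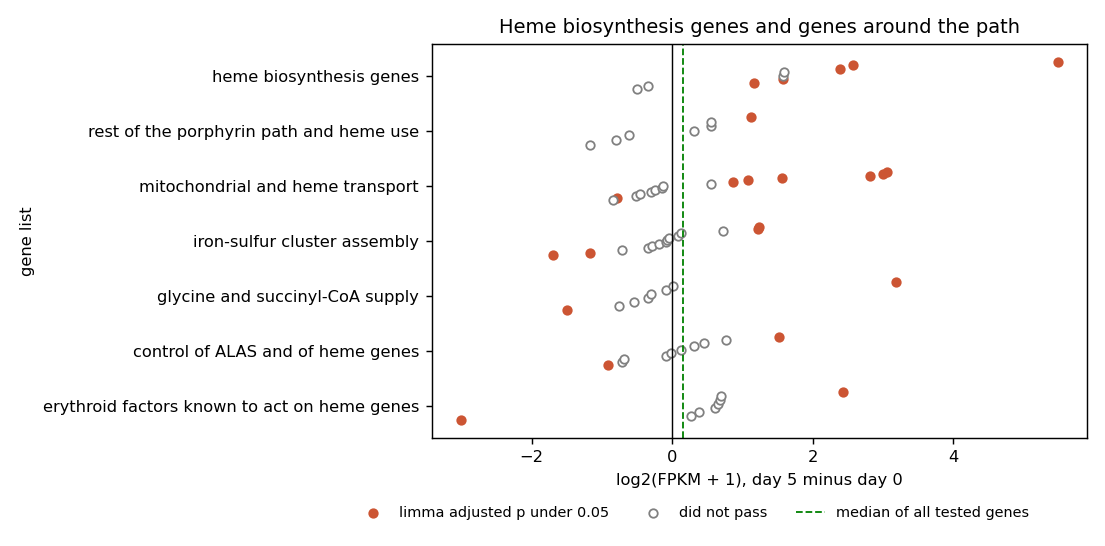
Change from day 0 to day 5 on the scale of log2(FPKM + 1) for each tested gene of the heme path (top row) and of 6 lists around it, with filled points where limma's adjusted p is under 0.05 and a dashed line at 0.15, the median of all genes tested. Filled points lie on both sides of 0 in 5 of the 6 lists around the path, whereas all 5 filled points of the heme path lie to the right.

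Of 8 genes that supply glycine and succinyl-CoA, the substrates of ALA synthase, 1 rose, 1 fell and 6 did not pass (median -0.32), shares near the 10.7% and 7.81% of all tested genes. Slc6a9, the glycine transporter GlyT1 of the cell surface, stood at 7.66 and 3.58 FPKM on day 0 and at 30.0 and 106 on day 5. Its day 5 libraries differed widely, so that the log2 fold change of 3.19 (limma adjusted p = 0.0331) was 4.09 without day 5 replicate 1 and 2.30 without day 5 replicate 2. Shmt2, the mitochondrial enzyme that turns serine into glycine, fell from 195 and 183 FPKM to 69.8 and 62.5 (-1.50, 0.0107). The genes of succinyl-CoA supply (Sucla2, Suclg1, Suclg2, Ogdh, Dlst and Dld) did not pass.

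Of 14 genes of iron-sulfur cluster assembly 2 rose, 2 fell and 10 did not pass (median -0.08). Of all tested genes 10.7% rose and 7.81% fell. The clusters matter here because ferrochelatase carries one and because they set the activity of the iron regulatory protein that controls translation of Alas2. Isca1 (log2 fold change 1.24, limma adjusted p = 0.0233) and Glrx5 (1.23, 0.0199) rose, while the assembly factor Lyrm4 (-1.69, 0.047) and the ferredoxin Fdx1l (-1.17, 0.0349) fell. Lyrm4 did not pass with a pseudocount of 0.1 (0.0584).

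Of 10 genes tested that control ALA synthase or the heme genes 1 rose and 1 fell (median 0.06). These shares are near the 10.7% and 7.81% of all tested genes. Eif2ak1, the heme-regulated kinase HRI that holds back globin translation when heme is short, stood at 18.4 and 19.4 FPKM on day 0 and at 67.0 and 46.9 on day 5 (log2 fold change 1.52, limma adjusted p = 0.0198). Clpp, the protease partner of ClpX in the mitochondrion, fell (-0.92, 0.0465), a call lost at a pseudocount of 0.1 (0.0515). Of 7 genes of heme use and breakdown only Blvrb, a biliverdin reductase abundant in red cells, passed (1.12, 0.0228; list median 0.31). Of all tested genes 18.5% passed in either direction.

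Of 8 erythroid factors that act on heme genes 1 rose and 1 fell (median 0.64), beside 10.7% and 7.81% of all tested genes. Tal1 rose from 22.9 and 23.4 FPKM to 140.2 and 120.2 (log2 fold change 2.44, limma adjusted p = 0.00517) and its partner Lmo2 fell from 122 and 107 to 14.1 and 12.8 (-3.00, 0.00441). Gata1 (0.66, 0.076) and Klf1 (0.68, 0.0538), whose motif cores are marked in the windows above, did not pass, and both passed after quantile normalization (0.0412 and 0.0416). Klf1 also passed with a filter of 5 FPKM (0.0475).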

How the data were processed

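The deposited RNA table holds FPKM that the authors computed for 26599 genes in stranded libraries, per the labels. The submitters' processing notes name Bowtie and mm9; the quantifier is unknown here, as are counts and depth. Genes reaching 1 FPKM in 2 libraries or more (10736) entered limma 3.58.1 (R 4.3.3; moderated by eBayes with an intensity trend, two-sided) on log2(FPKM + 1), which understates changes of low genes. P-values were adjusted by Benjamini-Hochberg over all of them, with a threshold of 0.05. The fit was also run on simulated data as a check of the code. Changes were set only in genes above the median level, with the same spread on both days. That run thus does not bear on low genes or on genes of uneven spread. DNase sites, PU.1 peaks and polymerase II contacts are on mm9 and gene positions used here on GRCm38.p6, so these were not analysed here. RefSeq promoter windows were trimmed to the 250 bases before the start. A shorter NRF1 core was searched first and replaced by the full consensus; the upstream Uros window matched only the former. In each list the 2 largest called rises and the 2 largest called falls were named, and some genes of the lists as planned are left out. All 64 remaining list genes were found, some by Ensembl ID. Members, lists and motifs were chosen with earlier results of these data known.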

Additional observations from a re-analysis of the deposited data

How the results depend on the processing

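All 9 heme genes kept the direction of their change in all 11 alternative fits. The number that rose was 5 with a pseudocount of 0.1, with a filter of 5 FPKM and with globin or mitochondrially encoded genes left out, 4 after quantile normalization, and 1 with no filter on low FPKM, where 237 of 15168 genes passed against 1989 of 10736. Leaving out a library gave 0 to 0 heme genes, with 0 to 13 genes of all passing, since a day then rests on a lone library assumed to vary like the other day. In those 4 fits between 5 and 7 of the 9 genes held their place in the order of change, 5 without day 0 replicate 2, and 7 held it with a pseudocount of 0.1. The ratio of Alas2 to Alas1 was 0.906 to 1.51 on day 0 and 60.6 to 87.4 on day 5 with a library left out, and 1.19 and 67.0 as a ratio of FPKM + 1. Whether same-numbered libraries were paired cannot be decided here. Their deviations correlated at 0.048 across genes, but each day gives only a single difference between replicates. With the replicate number as a block 6 heme genes rose, Ppox being added (log2 fold change 1.59, limma adjusted p = 0.0358), and 1797 genes passed in all. Of the other named genes Slc25a37 (0.0625) and Pgrmc1 (0.0537) did not pass with the block. The planned count of sites of either replicate at these genes was not run, because no position of a gene on mm9 was used here. Unknown depth limits all values of low genes such as Uros and Alas1.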
